A study of Mus musculus with 28 samples.

Results

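The interferon-stimulated genes described here are a set of 40 named mouse genes. A gene was measured where a probe set of the array named that gene and no other, and the probe set with the brightest mean stood for a gene with several. Of the 40, 36 were measured, out of 18820 genes with such a probe set in the series. Ifi44, Parp9, Dtx3l and Igtp were not analysed here, and Irf1 alone among the members had more than 1 probe set naming it only. Membership rests on the gene symbol and no measured value enters the rule, but the set was chosen with earlier results of these data known. None of the 36 probe sets lay in the lowest 30% of probe sets by mean signal, and no filter on low values was applied.

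Liver RNA from 28 male C57BL/6J mice was measured on single-colour whole-transcript arrays, 1 array per mouse. All of the mice started their diets at 9 weeks of age, in individual housing, and at the time of sampling followed an intermittent diet. On that diet, weeks of free access to AIN-93W-MF, a food with 25% of its energy as fat, took turns with weeks at 60% of the energy that control mice ate. Livers of lifelong intermittent mice were taken from 6 animals aged 6 months, 7 aged 12 months and 7 aged 24 months. A diet switch group of 8 had eaten AIN-93W-MF throughout up to the age of 12 months, moved to the intermittent diet then, and was also sampled at 24 months. Each mouse received carboxymethyl cellulose by gavage after a fast of 4 hours, then fasted for 6 hours more before the liver was frozen. The sources used here do not say in which week of the diet cycle a mouse was. Livers of mice on control food, on calorie restriction or on continuous AIN-93W-MF were not analysed here, so age differences below are differences within the intermittent diet and cannot be told apart from the length of time on it. Array names carry 1 of 3 batch codes. In the order of 6 months, 12 months, 24 months and switched, G150 held 4, 4, 4 and 6 livers, G151 held 1, 2, 1 and 1, and G152 held 1, 1, 2 and 1. The median of an array was between 5.23 and 5.31 (log2), and the number of arrays limits the precision of every value given. Hepatocyte markers had a mean level per liver between 12.84 and 13.07 log2 units.

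Interferons are secreted proteins, and cells release those of types I and III when sensors find foreign or misplaced nucleic acid. Type I and type III interferons signal through JAK kinases to a complex that holds Stat2 and Irf9 and binds the interferon-stimulated response element (ISRE) in promoters, whereas type II interferon (interferon gamma) acts mainly through the gamma-activated site (GAS). The genes switched on in this way include the sensors and transcription factors of the pathway itself, RNA-binding and RNA-degrading antiviral proteins, the ubiquitin-like modifier Isg15 with its enzymes, and GTPases that attack intracellular pathogens. In liver, both hepatocytes and resident macrophages (Kupffer cells) respond to interferon.

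Interferon-stimulated genes were higher in livers of 24-month-old than of 6-month-old mice on the lifelong intermittent diet. Of the 36 measured members, 8 rose and 0 fell at an adjusted p under 0.05 in limma: Oasl1, Ifit1, Ifit3, Rtp4, Samd9l, Irf1, Herc6 and Parp14. This is 22.2% of the members, while 4.73% of all 35556 probe sets passed in that comparison in either direction, 2.1% as higher and 2.63% as lower. Of the 18820 measured genes 1173 passed, 567 of them as higher. The rises of the 8 members ran from 1.26-fold for Parp14 to 1.86-fold for Oasl1. The fitted difference was above 0 for 34 of the 36, with a median of 0.30 log2 units beside a median of -0.00 over all genes. No member passed between 12 and 6 months, between 24 and 12 months, or between switched and lifelong mice at 24 months. In whole liver, fewer cells of a type and less RNA per cell cannot be told apart, and the same holds for more cells and more RNA per cell.

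**Figure D1:**
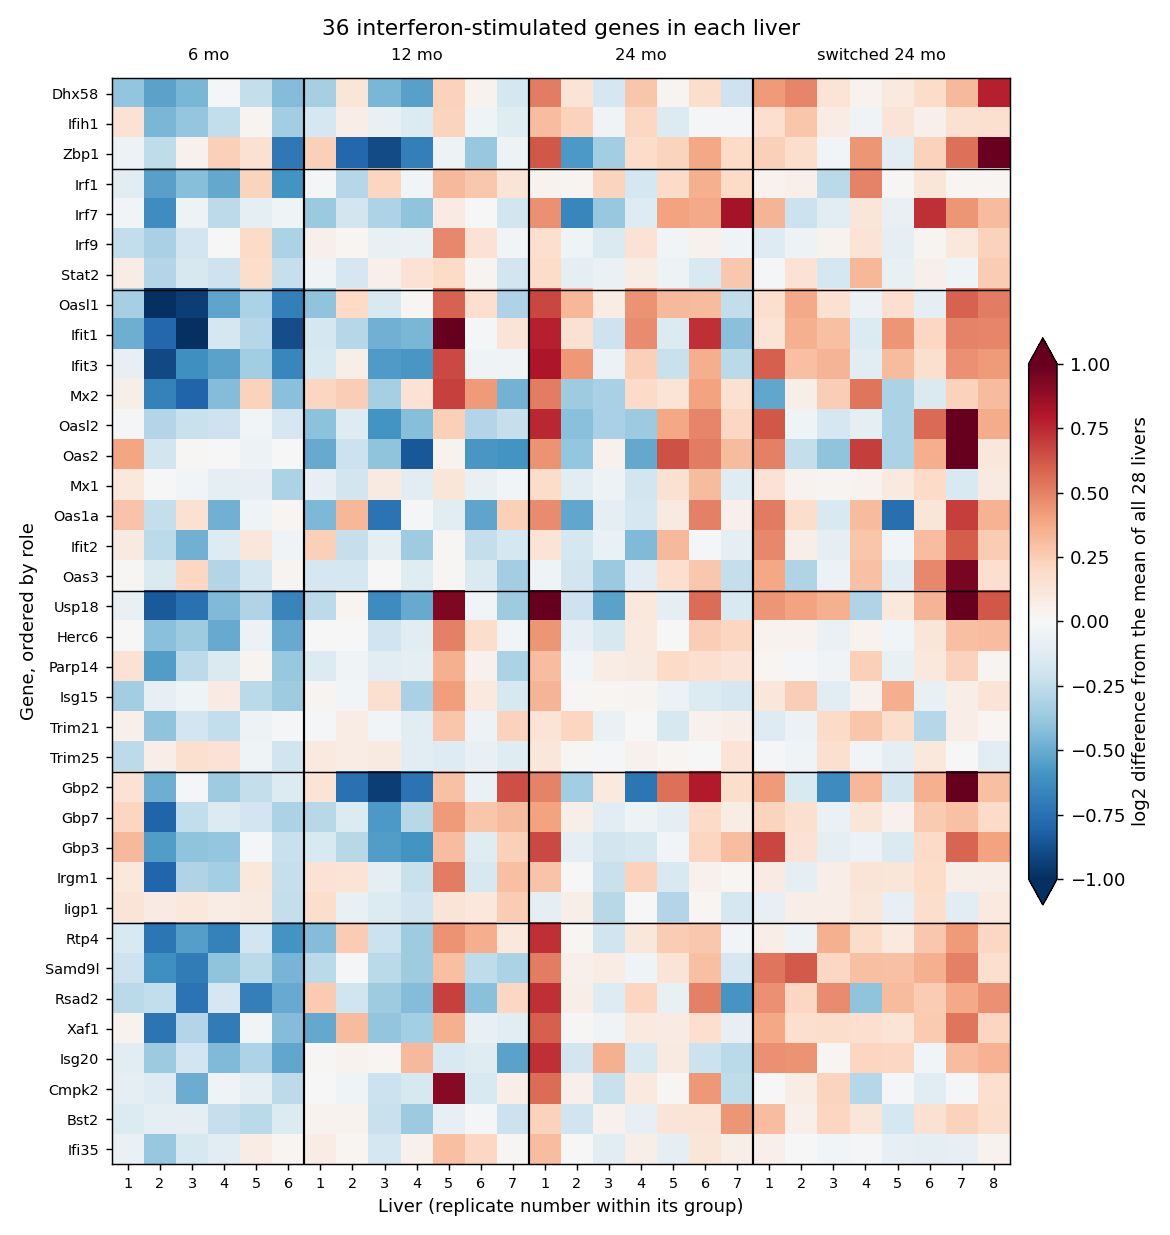
Each cell of the grid is 1 member (rows, ordered by role, with lines between roles) in 1 liver (columns, by group and replicate number), coloured by its log2 difference from that gene's mean over all 28 livers, with the colours ending at 1 unit either way. Most members are blue in the 6-month livers and red in the switched livers, and single columns stand out: 12-month replicate 5 held the highest value of its group for 28 of 36 members, and 24-month replicate 1 for 23.

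The promoters are shown first because the ISRE is the element that the complex with Stat2 and Irf9 binds. RefSeq promoter windows of 300 bases on GRCm38.p6, starting at position -250 from the gene's start, were at hand for 30 of the 40 members, 27 of them measured. The ISRE core, GAAA and GAAA with any 2 bases between them, searched on both strands, was found in 15 of the 30 (50%), against 3.99% of the 27025 genes with a window and 3.44% of all 32851 windows of that length. The GAS core TTCNNNGAA, also searched on both strands and able to overlap an ISRE match as it does in Bst2, was found in 8 of the 30 (26.7%), against 9.55% of genes and 8.30% of windows. A match is a description of letters and not a shown binding site. Of the members that rose at 24 months, Ifit1 and Ifit3 held an ISRE match and Irf1 held a GAS match, while the windows of Oasl1, Herc6 and Samd9l held no ISRE match. Windows for Parp14 and Rtp4 were not used here.

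The full windows of 3 members that rose with age follow, written 5′ to 3′ on the gene's strand with ISRE matches in capitals. Ifit1 and Ifit3, which lie in 1 gene cluster with 3 genes between them, carry 2 matches each, whereas Oasl1, the member with the largest rise, carries none in this window. Ifit1 lies at chr19:34640639-34640938 (plus strand), Ifit3 at chr19:34583279-34583578 (plus strand) and Oasl1 at chr5:114922990-114923289 (plus strand).
Ifit1: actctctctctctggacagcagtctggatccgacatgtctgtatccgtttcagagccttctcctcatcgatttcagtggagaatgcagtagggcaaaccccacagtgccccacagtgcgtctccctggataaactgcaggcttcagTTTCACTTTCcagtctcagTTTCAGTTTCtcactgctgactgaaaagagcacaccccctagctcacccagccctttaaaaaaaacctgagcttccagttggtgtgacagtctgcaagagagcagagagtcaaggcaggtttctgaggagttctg
Ifit3: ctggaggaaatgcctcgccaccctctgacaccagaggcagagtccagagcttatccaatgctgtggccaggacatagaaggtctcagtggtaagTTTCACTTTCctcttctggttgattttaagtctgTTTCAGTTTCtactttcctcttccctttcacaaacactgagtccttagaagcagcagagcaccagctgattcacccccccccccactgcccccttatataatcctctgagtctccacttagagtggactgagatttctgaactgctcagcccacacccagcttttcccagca
Oasl1: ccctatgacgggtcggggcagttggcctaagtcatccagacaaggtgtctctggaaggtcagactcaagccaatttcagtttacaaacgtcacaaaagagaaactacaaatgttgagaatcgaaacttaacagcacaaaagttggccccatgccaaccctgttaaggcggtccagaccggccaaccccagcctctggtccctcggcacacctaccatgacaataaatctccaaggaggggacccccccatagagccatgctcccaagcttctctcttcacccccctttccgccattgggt

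Shorter stretches of 60 bases around the ISRE matches are shown for members of other roles, again with the matches in capitals and on the gene's strand. They cover the modifier Isg15 at chr4:156200856-156200915 (minus strand), the effectors Bst2 at chr8:71537565-71537624 (minus strand) and Rsad2 at chr12:26456538-26456597 (minus strand), and the GTPases Gbp2 at chr3:142620579-142620638 (plus strand), Gbp3 at chr3:142559977-142560036 (plus strand) and Irgm1 at chr11:48871413-48871472 (minus strand). In Isg15, 3 matches overlap in 1 run, and in Bst2, Gbp3 and Irgm1 there are 2. None of these 6 members passed the test in any of the comparisons.
Isg15: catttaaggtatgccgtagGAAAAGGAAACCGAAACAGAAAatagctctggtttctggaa
Bst2: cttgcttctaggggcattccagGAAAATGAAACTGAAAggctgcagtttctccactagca
Rsad2: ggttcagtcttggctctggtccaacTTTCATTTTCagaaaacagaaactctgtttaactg
Gbp2: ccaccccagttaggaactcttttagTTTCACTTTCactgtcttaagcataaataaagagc
Gbp3: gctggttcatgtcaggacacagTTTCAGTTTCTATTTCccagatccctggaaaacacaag
Irgm1: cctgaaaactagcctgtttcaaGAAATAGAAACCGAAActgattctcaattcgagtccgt

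The comparison of 24 with 6 months asks how the old and the young liver differed under the lifelong intermittent diet, and its values follow by role. Levels are log2 array values on each gene's own probe set and are not compared between genes. Differences are fitted log2 differences with the batch as a term, and within-batch differences are given in the order G150, G151 and G152. Beyond the adjusted test, 19 of the 36 members had an unadjusted p under 0.05, all of them higher at 24 months (52.8%, against 19.2% of all probe sets in either direction and 8.04% as higher). Over the 18820 measured genes these shares were 22.2% and 10.7%. Median differences over the members within the batches were 0.22, 0.27 and 0.51. Groups did not overlap for 2 members, Oasl1 and Samd9l, whereas 1.69% of all probe sets had groups that did not overlap.

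Among the antiviral RNA-binding and GTPase effectors (the IFIT, OAS and Mx families), 3 of 10 rose and the median difference was 0.20. Oasl1 is an OAS-like protein without synthetase activity that represses translation of Irf7. Its level lay between 6.62 and 7.34 at 6 months (median 7.05), between 7.26 and 8.24 at 12 months (median 7.67), between 7.41 and 8.32 at 24 months (median 7.98) and between 7.57 and 8.24 in the switched group (median 7.82). Every 24-month liver was above every 6-month liver, and the 12-month livers overlapped both. The difference was 0.89 (1.86-fold, SE 0.16, limma adjusted p = 0.00245), and it was 0.95, 0.29 and 1.19 within the batches.

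Ifit1 and Ifit3 bind foreign RNA and block its translation. Ifit1 ranged from 6.09 to 6.92 at 6 months (median 6.45), from 6.61 to 8.34 at 12 months (median 6.92), from 6.68 to 7.87 at 24 months (median 7.25) and from 6.96 to 7.59 in switched livers (median 7.42). The lowest old livers overlapped the highest young ones, and the highest value of all came from 1 middle-aged liver. Its difference was 0.80 (1.74-fold, SE 0.23, limma adjusted p = 0.0439), with 7 of 7 old livers above the 6-month mean. Within batches it was 0.85, -0.24 and 1.35, so the sign turned in G151, where each of these ages had 1 liver.

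Ifit3 ranged from 7.31 to 8.13 at 6 months (median 7.64), from 7.63 to 8.87 at 12 months (median 8.17), from 7.94 to 9.02 at 24 months (median 8.45) and from 8.10 to 8.81 in switched livers (median 8.54). Here, too, the oldest and youngest lifelong groups overlapped at their edges, with 5 of 7 old livers above the highest young liver. The difference was 0.69 (1.62-fold, SE 0.18, limma adjusted p = 0.0261), and 0.56, 0.26 and 1.27 within batches. Ifit2, which lies next to Ifit3 in the genome, differed by 0.07 (adjusted p = 0.829).

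The other 7 members of these families did not pass. The oligoadenylate synthetases, which make the activator of the RNA-degrading enzyme RNase L, had differences of 0.09 for Oas1a, 0.14 for Oas2 and -0.01 for Oas3. Oasl2, the neighbour of Oasl1, had 0.26 (adjusted p = 0.546) with 4 of 7 old livers above all of the young ones. The Mx proteins are GTPases that trap viral particles, and RefSeq classes both genes as transcribed pseudogenes in the reference strain. Mx1 differed by 0.10 and Mx2 by 0.44 (adjusted p = 0.244).

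Of the 4 transcription factors, Irf1 rose and Irf7, Irf9 and Stat2 did not pass, and the median difference was 0.25. Irf1 is induced by interferon gamma and type I interferon and drives basal antiviral expression. Its level was 7.22 to 8.04 at 6 months (median 7.35), 7.53 to 8.15 at 12 months (median 7.95), 7.64 to 8.18 at 24 months (median 8.01) and 7.55 to 8.31 in switched livers (median 7.84). Most young livers sat below all others, but replicates 1 and 5 reached into the range of the old livers, and the groups overlapped. The difference was 0.47 (1.38-fold, SE 0.13, limma adjusted p = 0.0301), and 0.36, 0.71 and 0.63 within batches.

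Irf7 is the main amplifier of type I interferon production. It ranged from 7.94 to 8.53 at 6 months (median 8.49), from 8.16 to 8.64 at 12 months (median 8.38), from 7.91 to 9.40 at 24 months (median 8.94) and from 8.34 to 9.29 in switched livers (median 8.78). The old lifelong livers spanned the whole range of the young ones and went beyond it at both ends. Its difference of 0.32 did not pass (SE 0.18, limma adjusted p = 0.338). Irf9 and Stat2, the DNA-binding and transactivating parts of the ISRE-binding complex, had differences of 0.17 and 0.12.

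The 3 sensors of nucleic acid were each higher on average at 24 months without passing, with a median difference of 0.29. Ifih1 (MDA5) senses long double-stranded RNA. Its level was 8.17 to 8.77 at 6 months (median 8.33), 8.46 to 8.85 at 12 months (median 8.55), 8.49 to 8.94 at 24 months (median 8.61) and 8.59 to 8.90 in switched livers (median 8.77). The 6-month livers fell into lower and higher ones and the higher ones reached the old range. The difference was 0.29 (1.22-fold, SE 0.09, limma adjusted p = 0.0750). Dhx58 (LGP2), a helper of Ifih1, had 0.44 with an adjusted p of 0.0526, just past the threshold, and Zbp1, a sensor of Z-form nucleic acid, had 0.21.

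In the group around Isg15, ubiquitin and ADP-ribose, 2 of 6 members rose and the median difference was 0.26. Herc6 is the ligase that attaches Isg15 to proteins in the mouse. Its level was 7.39 to 7.89 at 6 months (median 7.51), 7.70 to 8.40 at 12 months (median 7.90), 7.74 to 8.34 at 24 months (median 8.00) and 7.83 to 8.20 in switched livers (median 7.94). The young group was the lowest and overlapped the others at its top. The difference was 0.42 (1.34-fold, SE 0.11, limma adjusted p = 0.0297), and 0.26, 0.72 and 0.69 within batches.

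Parp14, an ADP-ribosyltransferase, ranged from 7.43 to 8.13 at 6 months (median 7.78), from 7.67 to 8.34 at 12 months (median 7.89), from 7.96 to 8.30 at 24 months (median 8.12) and from 7.91 to 8.22 in switched livers (median 8.01). Old livers were closely grouped, while the young ones were spread out and reached into the old range. The difference was 0.34 (1.26-fold, SE 0.10, limma adjusted p = 0.0459), and 0.29, 0.28 and 0.52 within batches.

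Isg15 itself, the modifier that gives the group its name, was 4.15 to 4.59 at 6 months (median 4.33), 4.18 to 4.92 at 12 months (median 4.54), 4.34 to 4.85 at 24 months (median 4.52) and 4.40 to 4.87 in switched livers (median 4.60). All 4 groups overlapped widely. The signal of Isg15 was low, with a mean of 4.51 over all livers, below the array medians of 5.23 to 5.31. Only 33.9% of genes were dimmer. Its difference of 0.18 did not pass (SE 0.10, limma adjusted p = 0.361). Usp18, which removes Isg15 from proteins and restrains the type I receptor, had a difference of 0.61 that did not pass (adjusted p = 0.151), and its 24-month livers were spread from 7.79 to 9.47. The ubiquitin ligases Trim21 and Trim25 had 0.17 and 0.08.

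None of the 5 GTPases that are strongly induced by interferon gamma passed, and their median difference was 0.31. The guanylate-binding proteins attack the membranes around intracellular pathogens, and the differences were 0.35 for Gbp2, 0.31 for Gbp3 and 0.31 for Gbp7. The immunity-related GTPase Irgm1 had 0.27. Iigp1 (Irga6), another of that family, was 10.21 to 10.57 at 6 months (median 10.53), 10.24 to 10.70 at 12 months (median 10.55), 10.15 to 10.51 at 24 months (median 10.35) and 10.34 to 10.62 in switched livers (median 10.51). It was the member with the lowest difference, -0.14 (SE 0.08, limma adjusted p = 0.364), and only 1 of 7 old livers was above the 6-month mean.

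Of the 8 remaining effectors, Samd9l and Rtp4 rose, 7 had an unadjusted p under 0.05, and the median difference was the largest of the roles at 0.42. Samd9l is an antiviral protein that blocks poxvirus replication. Its level was 6.49 to 6.98 at 6 months (median 6.75), 6.83 to 7.49 at 12 months (median 6.92), 7.02 to 7.70 at 24 months (median 7.26) and 7.35 to 7.80 in switched livers (median 7.51). Neither group of 24-month livers overlapped the 6-month livers. The difference between lifelong groups was 0.57 (1.48-fold, SE 0.11, limma adjusted p = 0.0052), and 0.56, 0.23 and 0.75 within batches.

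Rtp4 is a chaperone of membrane receptors that also restricts RNA viruses. It ranged from 7.42 to 7.99 at 6 months (median 7.56), from 7.71 to 8.59 at 12 months (median 8.24), from 7.94 to 8.87 at 24 months (median 8.25) and from 8.08 to 8.56 in switched livers (median 8.33). All but 1 of the 7 old livers were above the highest young liver. The difference was 0.65 (1.57-fold, SE 0.15, limma adjusted p = 0.0149), and 0.51, 0.65 and 0.97 within batches.

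Rsad2 (viperin) makes a chain-terminating nucleotide that stops viral polymerases, and Cmpk2, its neighbour in the genome, supplies the substrate. Rsad2 was 6.59 to 7.16 at 6 months (median 6.94), 6.90 to 8.01 at 12 months (median 7.13), 6.74 to 8.06 at 24 months (median 7.40) and 6.93 to 7.80 in switched livers (median 7.68). Although 6 of 7 old livers were above the highest young one, the remaining old liver lay in the lower part of the young range. The difference of 0.53 did not pass (SE 0.20, limma adjusted p = 0.125), and Cmpk2 had 0.28 (adjusted p = 0.329). Bst2 (tetherin), which holds budding virions at the membrane, had 0.27 (adjusted p = 0.0584), and Xaf1, a pro-apoptotic antagonist of XIAP, had 0.48 (adjusted p = 0.0595). The RNA exonuclease Isg20 had 0.35 and Ifi35 had 0.14.

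The calls of this comparison differed in how far they rested on single livers. Oasl1, Samd9l and Rtp4 passed whichever 1 of its 13 livers was left out. Without 6-month replicate 2, 3, 4 or 6, or without 24-month replicate 1 or 6, these 3 members were the only ones of the 8 to pass. Irf1 and Parp14 were also lost without 24-month replicate 3 or 5, Ifit1 without replicate 2, 4 or 5, and Parp14 without replicate 4. The highest adjusted p over the 13 fits was 0.0902 for Ifit3, 0.111 for Herc6, 0.099 for Irf1, 0.136 for Ifit1 and 0.142 for Parp14. The number of members that passed was 10 without 6-month replicate 1, 11 without 6-month replicate 5 or 24-month replicate 7, and 5 without 24-month replicate 5, and all that passed were higher at 24 months. In batch G150 alone Oasl1 and Samd9l passed, and in G151 and G152 alone 0 members did.

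**Figure D2:**
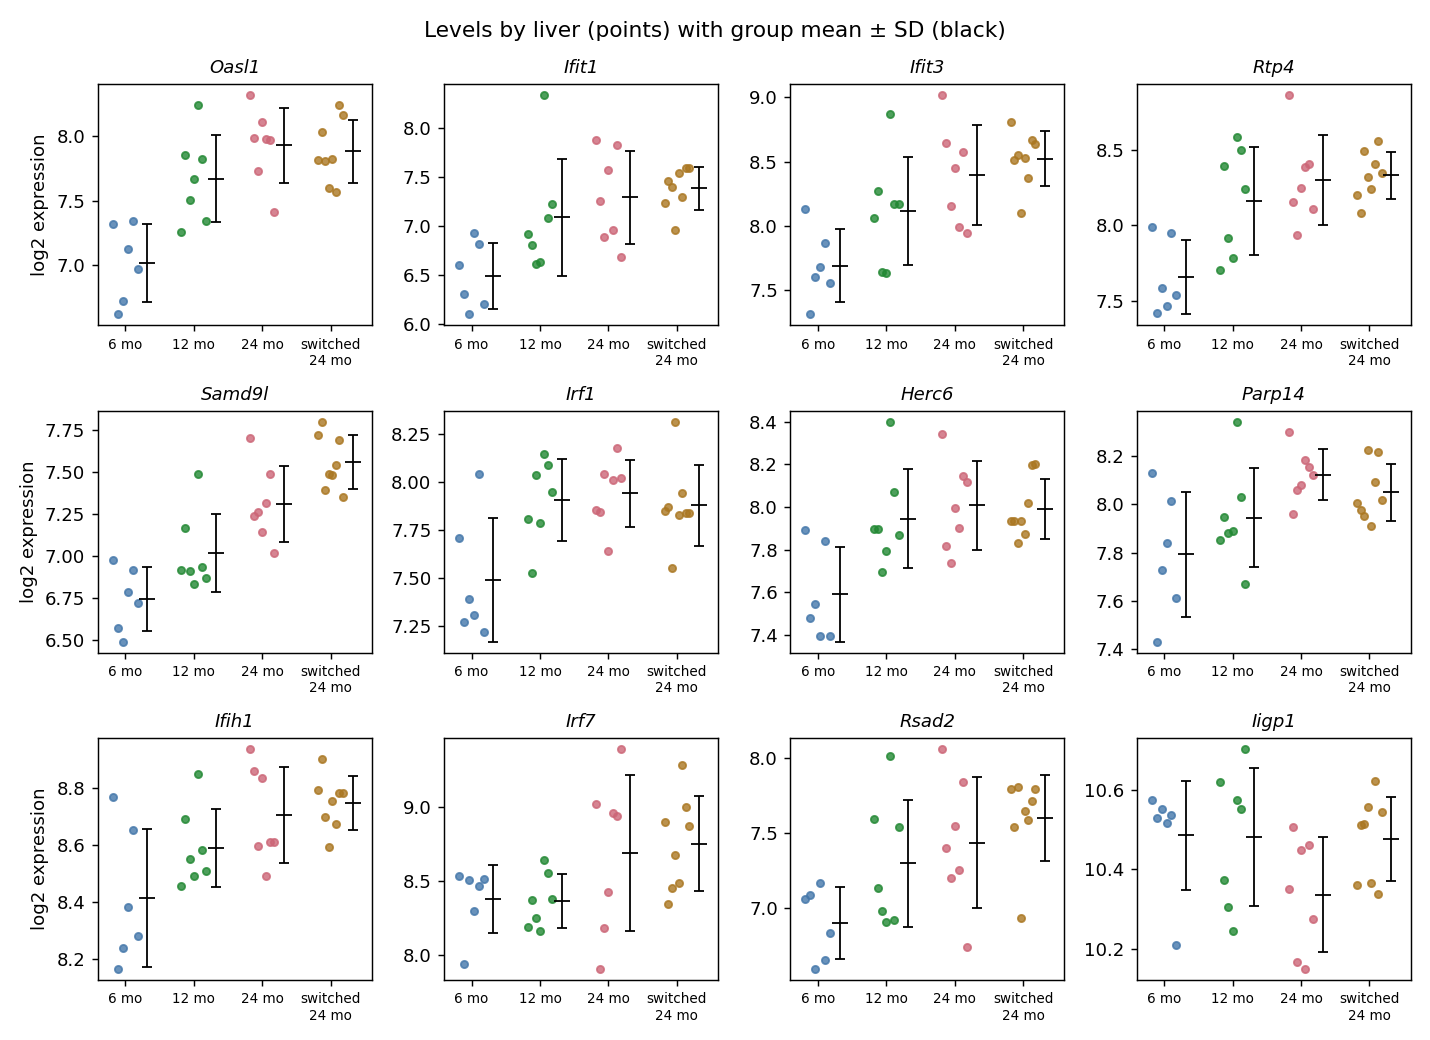
Points are the log2 level of each liver for the 8 members that rose at 24 months and for Ifih1, Irf7, Rsad2 and Iigp1, which did not pass, in the 4 groups, and black marks are the group mean ± SD (n = 6, 7, 7 and 8), with an axis of its own for each gene. Oasl1 and Samd9l are the panels in which no 24-month liver is as low as the highest 6-month liver, and in the Iigp1 panel the 24-month lifelong mean is the lowest of the 4.

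Between 12 and 6 months, which asks what had already changed in middle age, 0 of the 36 members passed in limma, and 0.591% of all probe sets did. An unadjusted p under 0.05 was reached by 13 members, 12 higher and 1 lower (13.1% of all probe sets in either direction, 6.6% as higher). Over the 18820 measured genes these shares were 15.1% and 8.34%. The median difference was 0.17, and 26 members were above 0. Oasl1 came nearest to the threshold with a difference of 0.65 (SE 0.16, adjusted p = 0.0572), and it passed without 6-month replicate 1 or 5 or 12-month replicate 1 (adjusted p = 0.0270, 0.0336 and 0.0354). Irf1 had 0.41 (adjusted p = 0.124) and passed without 6-month replicate 5 (adjusted p = 0.0313). Ifit1 had 0.57, Rtp4 0.50 (adjusted p = 0.123), Mx2 0.46, Ifit3 0.41, Herc6 0.34 and Irgm1 0.33, none of which passed.

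Oas2 went the other way. Its level was 6.26 to 6.84 at 6 months (median 6.45), 5.60 to 6.48 at 12 months (median 5.94), 5.93 to 7.08 at 24 months (median 6.76) and 6.05 to 7.64 in switched livers (median 6.68). The middle-aged livers were the lowest as a group and overlapped each of the others. Its difference was -0.50 between 12 and 6 months (adjusted p = 0.330) and 0.64 between 24 and 12 months (adjusted p = 0.235), and these comparisons share the 12-month livers. Zbp1 had -0.30 and 0.50 in the same comparisons, and neither passed. Irf7 had -0.05 and 0.37, and Iigp1 had -0.01 and -0.14.

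Between 24 and 12 months, the later span of life on the diet, 0 of the 36 members passed in limma, beside 0.0253% of all probe sets. The median difference was 0.13, and 29 members were above 0. An unadjusted p under 0.05 was reached by 7 members, all higher at 24 months: Oas2, Zbp1, Irf7, Samd9l (0.30), Dhx58 (0.28), Bst2 (0.25) and Parp14 (0.20). Of all probe sets, 11.1% reached that level in either direction and 4.76% as higher, and of the 18820 measured genes 12.3% and 5.83%. Oasl1 had 0.25, Ifit1 0.23, Rsad2 0.13, Ifih1 0.12 and Isg15 -0.00. Within batches the median over the members was 0.15, -0.15 and 0.40, so its sign turned in G151. That batch held 1 liver at 24 months and 2 at 12 months, with 12-month replicate 5 among them. Leaving out 24-month replicate 1 took the median to 0.07, and leaving out 12-month replicate 4 took it to 0.08.

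Between switched and lifelong mice at 24 months, which asks whether a moderate-fat diet up to the age of 12 months left a difference in old age, 0 of the 36 members passed in limma, and 0.0197% of all probe sets did. The median difference was 0.06, with 28 members above 0. The members with an unadjusted p under 0.05 were Oas3 at 0.30 (adjusted p = 0.631), Ifit2 at 0.28 (adjusted p = 0.590) and Samd9l at 0.25 (adjusted p = 0.591), which is 8.33% of the members and close to the 7.58% of all probe sets at that level (3.56% as higher). All 8 switched livers were above the lifelong mean of Samd9l, but the groups overlapped. The remaining representatives of the roles had 0.18 for Rsad2, 0.13 for Iigp1, 0.10 for Ifit1, 0.10 for Isg15, 0.06 for Irf7 and 0.05 for Ifih1. Among the roles, the median difference was highest for the 3 sensors at 0.21, and it was -0.00 for the 6 genes around Isg15. A difference that misses the threshold with 7 and 8 livers does not show that the groups were alike.

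**Figure D3:**
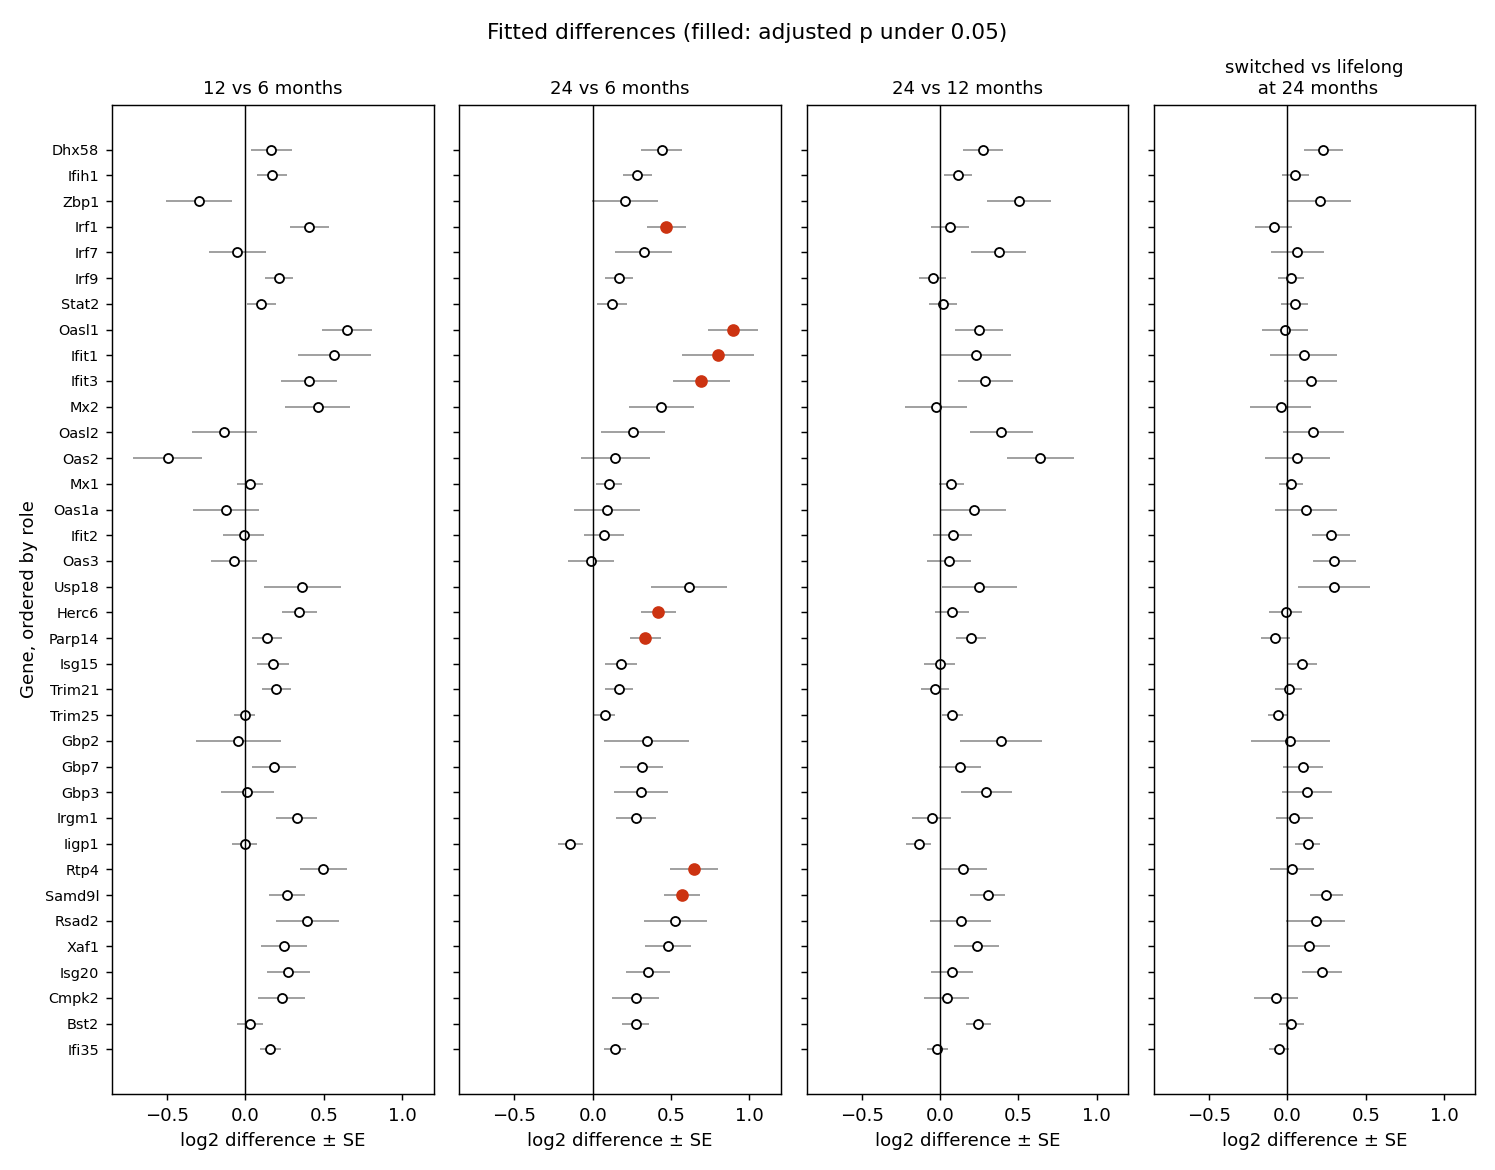
Fitted log2 differences ± SE of the 36 members, ordered by role, in the 4 comparisons, with filled points where the adjusted p was under 0.05. Filled points are found for 8 members in the panel of 24 against 6 months, all to the right of 0, and in no other panel, where Oasl1 at 12 against 6 months came closest.

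Taking group means as they are, without the batch term and without a test, the lowest of the 4 was that at 6 months for 26 members, at 12 months for 9 and at 24 months for 1, Iigp1. The highest was that of the switched livers for 24 members, of the 24-month lifelong livers for 6, of the 12-month livers for 5 and of the 6-month livers for 1. The 9 members with their lowest mean at 12 months were Gbp2, Ifit2, Irf7, Oas1a, Oas2, Oas3, Oasl2, Trim25 and Zbp1. The 5 with their highest mean at 12 months were Ifi35, Irf9, Irgm1, Mx2 and Trim21. These orders are a description, and the tests are those given above.

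The members varied more between livers of 1 group than genes did in general. The median SD over members was 0.23 at 6 months, 0.26 at 12 months, 0.23 at 24 months and 0.18 in switched livers, beside 0.15, 0.15, 0.16 and 0.16 for all genes. The most variable members were Mx2 at 6 months (SD 0.41), Gbp2 at 12 months (SD 0.61), Usp18 at 24 months (SD 0.56) and Oas2 in switched livers (SD 0.56). The least variable were Bst2, Trim25, Trim25 again and Ifi35, with an SD of 0.07, 0.11, 0.06 and 0.06. Averaged over the members, the difference of a liver from the mean of all livers was -0.24 ± 0.15 (SD, n = 6) at 6 months, -0.07 ± 0.20 (n = 7) at 12 months, 0.08 ± 0.19 (n = 7) at 24 months and 0.16 ± 0.12 (n = 8) in switched livers. These averages ran from -0.43 to -0.03, from -0.27 to 0.33, from -0.11 to 0.43 and from 0.00 to 0.38.

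Single livers stood high or low across much of the set. The liver of 12-month replicate 5 had an average of 0.33, whereas the next highest of its group had -0.04, and it held the group's highest value for 28 of 36 members. The liver of 24-month replicate 1 had 0.43, held the highest value of its group for 23 members, and was above the median of all livers for 35. At the low end, 6-month replicate 2 had -0.43 and held the lowest value of its group for 19 members. In switched mice the highest liver was replicate 7 at 0.38, with Oas2, Oasl2, Oas3 and Gbp2 among its 12 group maxima. Without 12-month replicate 5 the median difference between 12 and 6 months was 0.13 in place of 0.17, and without 24-month replicate 1 the median between 24 and 6 months was 0.25 in place of 0.30, with 3 members passing in place of 8.

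The rest of the interferon pathway was followed through lists of its other genes. At the ligand end, 14 interferon genes were measured, among them Ifnb1, 8 with a symbol of the alpha type, Ifng and Ifnl2. Their signals were low: apart from Ifnl2, group means lay between 2.98 and 4.77, below the array medians of 5.23 to 5.31. A lack of change at such levels shows little, and 0 of the 14 passed in any comparison. Their median difference between 24 and 6 months was -0.06, and the smallest p belonged to Ifnab at -0.34 (adjusted p = 0.196) and Ifna6 at -0.22 (adjusted p = 0.246). Ifnb1 had 0.06 and Ifng, the type II interferon, had 0.15 (adjusted p = 0.382). Of 9 receptor chains and JAK kinases, 0 passed and the median was 0.12. The smallest p belonged to Ifngr2, a chain of the interferon gamma receptor, at 0.35 (adjusted p = 0.0694), and the kinase Tyk2 at 0.23 (adjusted p = 0.165). The type I receptor chain Ifnar1 had -0.09.

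Upstream of the interferons, 2 of 21 other sensors and adaptors rose between 24 and 6 months, with a median of 0.14. This is 9.52%, against 4.73% of all probe sets called in either direction and 2.1% called higher. Rigi, the sensor of RNA ends that works beside Ifih1, rose by 0.52 (1.44-fold, SE 0.13, adjusted p = 0.0218). Tlr3, the endosomal receptor for double-stranded RNA, rose by 0.36 (1.28-fold, SE 0.10, adjusted p = 0.0450). Within batches Tlr3 had 0.41, -0.29 and 0.66, so its sign turned in G151. Of 10 negative regulators of the pathway 0 passed, and those with the smallest p were the phosphatases Ptpn11 at -0.19 (adjusted p = 0.0791) and Ptpn2 at -0.25 (adjusted p = 0.0876). Summed over ligands, receptors, sensors and negative regulators, these 2 calls were lost without 6-month replicate 2, 3 or 6, 1 remained without 24-month replicate 1, 2, 3 or 5, and 6 genes passed without 24-month replicate 7 and 4 without 6-month replicate 1. Between 24 and 12 months 0 of these genes passed, but 3 did without 24-month replicate 4 and 1 without 24-month replicate 7.

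Further interferon-regulated genes outside the set were measured as a list of 51, also chosen with earlier results of these data known. Between 24 and 6 months 11 of them rose (21.6%, against 2.1% of all probe sets called higher) and 0 fell, with a median of 0.30. The largest rise was that of the helicase Ddx60 (0.71, 1.63-fold, SE 0.13, adjusted p = 0.00341), which assists the RNA sensors. RNA of the chemokine gene Cxcl11 rose by 0.49 (adjusted p = 0.00407). The nuclear body protein Pml rose by 0.36 (adjusted p = 0.0116), Ifi27 by 0.64 (adjusted p = 0.0138) and the lectin Lgals9 by 0.40 (adjusted p = 0.0155). In antigen processing, Psmb9, a subunit of the immunoproteasome, had a rise of 0.67 (adjusted p = 0.0178), and the peptide transporter chains Tap1 and Tap2 were also among the 11. The count was 3 without 6-month replicate 6, 6 without 6-month replicate 3 or 4, 7 without 6-month replicate 2 and 17 without 6-month replicate 1.

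In the other comparisons this list gave few calls. Between 12 and 6 months 2 of the 51 rose (3.92%, against 0.591% of all probe sets called in either direction), Cxcl11 by 0.46 (SE 0.09, adjusted p = 0.0327) and Lgals9 by 0.43 (SE 0.10, adjusted p = 0.0403). Both were lost without 6-month replicate 2, 3, 4 or 6 or without 12-month replicate 3, 4 or 5, and 1 remained without 12-month replicate 2 or 6. Between 24 and 12 months 0 passed, with 11 higher at an unadjusted p under 0.05 (21.6%, against 4.76% of all probe sets), and the smallest p belonged to Ifi27l2a at 0.69 (adjusted p = 0.0749). Without 24-month replicate 4, 2 of the list passed there. Between switched and lifelong mice 0 passed, with 1 at an unadjusted p under 0.05 (1.96%, against 7.58% of all probe sets).

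Markers of other cells of the liver moved over the same livers, and their part in the differences above was not tested. Between 24 and 6 months 8 of 16 markers of B and plasma cells rose (median 0.52), led by Igkc at 3.52, as did 3 of 18 macrophage markers (median 0.40), namely Lyz2, Itgax and Gpnmb. Among the rest, 1 of 17 T and NK cell markers (Zap70), 1 of 11 neutrophil markers (Lcn2) and 1 of 8 plasmacytoid dendritic cell markers (Tcf4) rose, beside 4.73% of all probe sets called in either direction. All 18 macrophage markers and 14 of the 16 B and plasma cell markers had a difference above 0. So did all 11 neutrophil markers, with a median of 0.39. The same held for 14 of the 17 T and NK cell markers, with a median of 0.21, beside 49.5% of all genes. Of the plasmacytoid dendritic cell markers 5 were below 0, with a median of -0.04. Of 13 hepatocyte markers, Tat fell by 0.42 and the median was -0.08, while 0 of 12 endothelial and 0 of 12 stellate markers passed. The mean level of the macrophage markers in a liver was 7.26 to 7.61 at 6 months, 7.08 to 7.35 at 12 months, 7.17 to 8.53 at 24 months and 7.46 to 9.12 in switched livers. That of the B and plasma cell markers was 5.30 to 5.54, 5.43 to 5.90, 5.66 to 6.52 and 5.65 to 6.45, and that of the T and NK cell markers was 4.55 to 4.71, 4.41 to 4.86, 4.52 to 5.02 and 4.54 to 5.22. No marker is at 0 on an array, so absence of a cell type could not be read from these values.

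Liver by liver, members and markers ranked alike in some livers and not in others. The 24-month liver with the highest macrophage score, replicate 3 at 0.83 relative to the mean of all livers, had the lowest average over the members in its group, -0.11. The 12-month liver with the highest average over the members, replicate 5 at 0.33, had a macrophage score of -0.35. That score was below the mean of all livers but was the highest of its group. The B and plasma cell score of this liver was -0.38. At 6 months, replicate 1 was likewise the highest of its group in both, at -0.03 for the members and -0.09 for macrophages. In the 24-month liver that stood highest, replicate 1, the members averaged 0.43, with 0.28 for macrophages and -0.09 for B and plasma cells. In switched replicate 7 both were high, at 0.38 for the members and 1.43 for macrophages. The same held for 24-month replicate 6, at 0.25 and 0.74. Both were low in 6-month replicate 2, at -0.43 and -0.44. Between 12 and 6 months the median over the macrophage markers was -0.19 while that over the members was 0.17. Between 24 and 12 months these medians were 0.68 and 0.13, and between 24 and 6 months they were 0.40 and 0.30. The livers named here were chosen after their values were seen, and a link between members and markers was not tested.

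**Figure D4:**
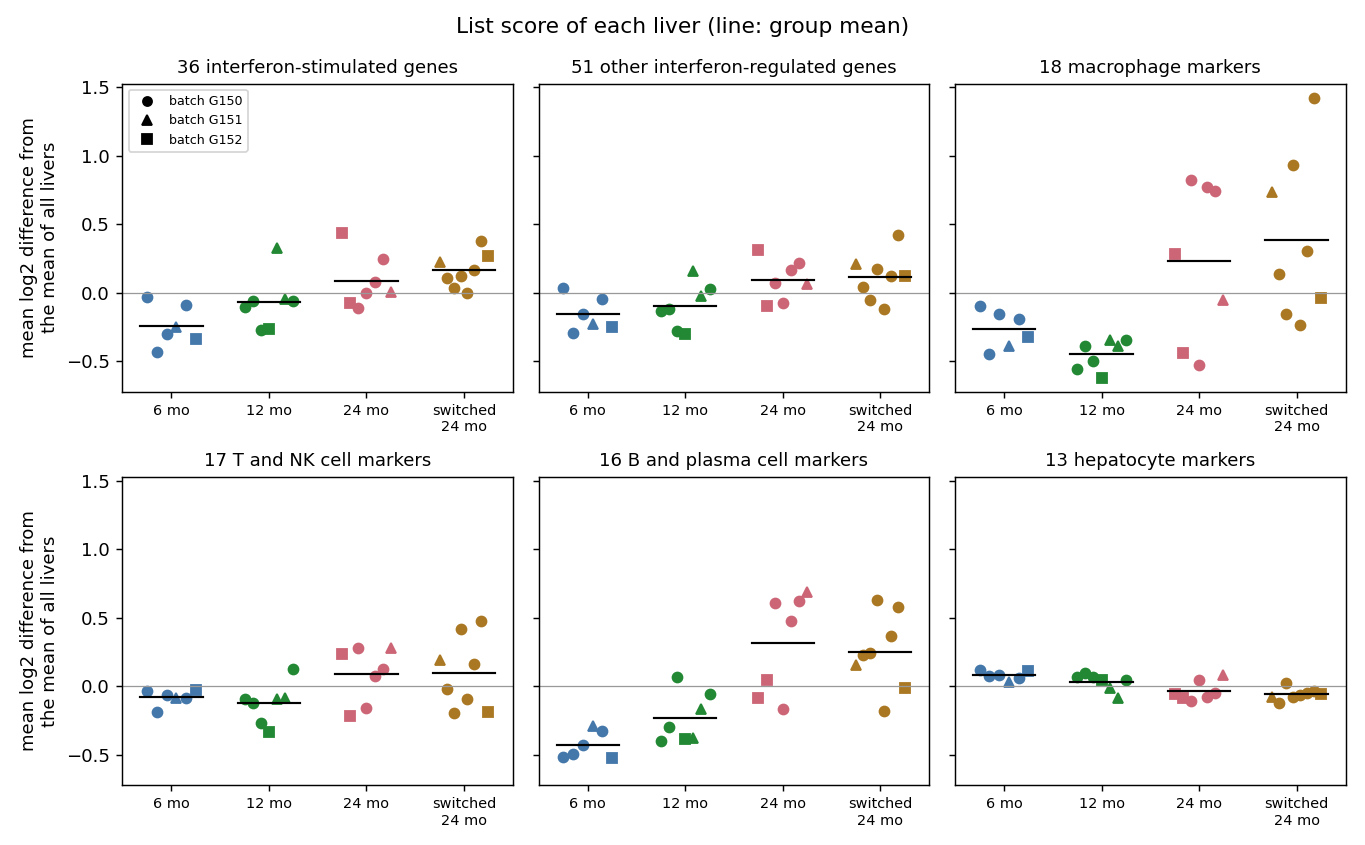
Each point is 1 liver, placed by the mean log2 difference of a list's genes from the mean of all livers, with the point's shape giving the array batch and the line the group mean. The group mean of the members is -0.24 at 6 months, 0.08 at 24 months and 0.16 in switched livers, and the macrophage scores of the 24-month groups are spread from -0.53 to 1.43.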

How the data were processed

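Arrays of 28 livers were used as deposited. The authors summarised them with RMA, per the submitters' processing notes, which gave the deposited log2 level of each probe set. The version of RMA, and whether all arrays were normalised together, are not given in the sources used here. Probe sets were named from GEO's platform annotation, and a gene's probe set is one that names it alone, the brightest where there were several. The fit used limma 3.58.1 under R 4.3.3: lmFit and eBayes on every array, with fixed effects for group and batch. Two-sided p-values were corrected (Benjamini-Hochberg) over 35556 probe sets per comparison, and a call needs an adjusted p under 0.05. SE is limma's moderated one, and within-batch values are plain differences of means. The fit was also run on simulated data with independent noise for each probe set. Those data held no batch shifts and no livers set apart, so they cannot show how far the calls rest on such livers. Each mouse gave 1 array, so the spread is between mice.

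The members, gene lists, marker lists and tests were chosen with earlier results of these data known. Members that passed and 1 member per role (Ifih1, Irf7, Ifit1, Isg15, Iigp1 and Rsad2) are given by liver, and genes of other lists are named where they passed, up to 6 per list by smallest p, or else the 2 with the smallest p. Single genes of those lists named beyond this were chosen after their values were seen, as were Oas2 by liver and the livers singled out. Replicate numbers were not treated as pairs in the main fit. Over 39 pairs of livers with the same number, deviations from the fitted group and batch means had correlations from -0.14 to 0.14 (median 0.02). Over 254 pairs with different numbers they ran from -0.32 to 0.19 (median 0.00). Low correlations cannot exclude a pairing. A list score averages, over the genes of a list, a liver's deviation from the 28-liver mean. Promoter windows and gene order are RefSeq's (GRCm38.p6), and no coordinates of the arrays were used. Figures were drawn with matplotlib 3.10.9, and tables were handled with numpy 2.4.6 and pandas 2.3.3 under Python 3.11.15. The alternatives tried are named in the closing section.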

Additional observations from a re-analysis of the deposited data

Results flagged for a closer look

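Groups of livers were screened for a liver far from the others of its group, over each of the 36 members and their average in each of 4 groups. Of 148 such screens 12 singled out a liver, and chance gives about 1 in 20. The liver of 12-month replicate 5 was far above the others of its group for Ifit1 (8.34, next 7.22), Usp18 (9.26, next 8.36), Irf9 (9.47, next 9.13), Cmpk2 (6.86, next 6.01) and the average over the members (0.33, next -0.04). The liver of 24-month replicate 1 was far above its group for Isg15 (4.85, next 4.53) and Xaf1 (7.28, next 6.85). In the 6-month group, Oas2 was high in replicate 1 (6.84, next 6.46) and Iigp1 was low in replicate 6 (10.21, next 10.52). In switched mice, Mx1 was low in replicate 7 (4.69, next 4.88), Irgm1 in replicate 2 (8.46, next 8.61) and Rsad2 in replicate 4 (6.93, next 7.54).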

How the results depend on the processing

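Fits were repeated without the batch term, in batch G150 alone, in G151 and G152 alone, with only the groups compared, without the lowest 30% of probe sets, after a second quantile normalisation, with arrays centred on the median, with a mean-variance trend and robust moderation, with array weights, with the replicate number as a block, on 1-gene probe sets only, with the mean of a gene's probe sets, without the pair of arrays whose names carry an added suffix, and without each liver in turn. All members that passed between 24 and 6 months were higher at 24 months in every one of these. Their number, 8 as reported, was 2 in G150 alone, 0 in G151 and G152 alone and 2 with only the groups compared, where fewer livers enter. It was 12 with array weights, 11 without the lowest 30%, after quantile normalisation, on 1-gene probe sets and without the suffixed arrays, 9 with the trend and 8 in the remaining settings but the block, and 3 to 11 on leaving out 1 liver. Between 12 and 6 months it was 1, Oasl1, without the lowest 30%, after quantile normalisation, with array weights and on 1-gene probe sets, and 0 to 2 on leaving out 1 liver. No member passed in the other comparisons under any of these settings. With the replicate block the members passing between 24 and 6 months were 6: Ifit1, Irf1 and Parp14 were lost and Dhx58 was gained. Without the batch term the number stayed at 8, but Parp14 was lost and Xaf1 was gained. Medians over the members on leaving out 1 liver were 0.13 to 0.23 (12 against 6 months), 0.25 to 0.36 (24 against 6), 0.07 to 0.19 (24 against 12) and 0.04 to 0.13 (switched). After quantile normalisation 852 probe sets were higher and 812 lower between 24 and 6 months, against 747 and 934 as deposited.

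The 2 calls among other interferon-regulated genes between 12 and 6 months became 1 without the batch term, with the block or without the suffixed arrays, 0 in G150 alone, in G151 and G152 alone or with only the groups compared, and 0 to 3 on leaving out 1 liver. Their 11 calls between 24 and 6 months became 1 in G150 alone, 0 in G151 and G152 alone, 17 with array weights and on 1-gene probe sets, and 3 to 17 on leaving out 1 liver. The 2 pathway calls of that comparison became 0 in G150 alone, in G151 and G152 alone and with only the groups compared, 4 with array weights and on 1-gene probe sets, 1 with the block, 5 without the suffixed arrays and 0 to 6 on leaving out 1 liver. Between 24 and 12 months, where neither list had a call, each had 1 on 1-gene probe sets, and leaving out 1 liver gave 0 to 2 and 0 to 3. The cause of these moves was not tested.

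Beside the within-batch differences given with the genes, signs turned in the following fitted differences, none of which had passed. Iigp1 (12 against 6 months) was 0.0817 in G151 and G152 alone and 0.0022 after centring, and -0.0595 to 0.0357 on leaving out 1 liver, and between 24 and 6 months 0.0261 in G151 and G152 alone. Oas3 (24 against 6) was 0.0112 in G150 alone, 0.0006 with array weights and 0.0205 without the suffixed arrays, and -0.0745 to 0.0434 on leaving out 1 liver. Isg15 (24 against 12) was 0.0526 in G151 and G152 alone, 0.0139 after quantile normalisation, 0.0254 with array weights, 0.0058 with the block and 0.0662 without the suffixed arrays, and -0.0806 to 0.077 on leaving out 1 liver. Ifit1 was -0.04 between 24 and 12 months and Ifih1 -0.0161 in switched mice in G151 and G152 alone, and Ifit1 in switched mice was -0.083 without the suffixed arrays and -0.0682 to 0.214 on leaving out 1 liver. Leaving out 1 liver also gave -0.1475 to 0.0035 for Irf7 between 12 and 6 months, -0.0481 to 0.1565 for Irf7 in switched mice and -0.0005 to 0.1428 for Ifit2 between 24 and 6 months. Each batch other than G150 held 1 or 2 livers of a group, which limits what within-batch values can show.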
